A study of Danio rerio with 8 samples.

Results

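Hemoglobin and red cell genes were examined in zebrafish liver after exposure to river water. The set held 10 genes: the adult globins *hbaa1*, *hbaa2*, *hbba1* and *hbba2*, the embryonic globins *hbae1.1*, *hbae3* and *hbbe2*, and the red cell genes *alas2*, *slc4a1a* and *gata1a*. Array probes were assigned to a gene by the RefSeq accession printed on the array. In this way 9 of the 10 genes had a probe and *hbaa1* had none, which gave 19 probes of 43603 on the array. Of these, 12 probes of 6 genes were well above background on all 8 arrays (the scanner software's own mark), while 7 probes were dim on at least 1 array. *hbae1.1*, *hbae3* and *hbbe2* had dim probes only.

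Hemoglobin is built from alpha and beta globin chains, each of which holds a heme group that binds oxygen, and fish use different globin genes in embryonic and adult red cells. Red cells of zebrafish keep their nucleus and circulate through the liver, so liver RNA holds globin transcripts from blood as well as transcripts of the liver's own cells. In the adult zebrafish new red cells are made mainly in the kidney marrow.

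The 7 exposed groups were adult wild-type male zebrafish, 3 months old, kept for 96 h in surface water from site H1, H2, H3, H4 or H5 on the Hun River, from site D on the Dongzhou River or from site X on the Xi River. The control group was males of the same age, kept untreated for the same time. The labels also give 97 h in 1 field for D and X. The fish came from a commercial distributor, and each group was 1 pool of 5 livers on 1 one-colour array. With 1 array per group there are no replicates, so no p-value was computed and each difference compares 1 pool with 1 pool. All 7 comparisons share the same control array.

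Signals were quantile normalized and expressed as log2 values. The share of spots well above background was 56.5% to 70.8% per array, and no spot was saturated. Repeated spots gave an error of 0.132 to 0.161 for a log2 difference between 2 arrays when the median spread over repeated probes was taken. With the spread pooled over these probes it was 0.198 to 0.281. Both cover error within arrays only and not the spread between fish. H1, H2 and D shared a slide with the control. The other 4 sites, H3, H4, H5 and X, shared a separate slide, so that for them slide and exposure cannot be told apart. All 18 hepatocyte markers were well above background on every array, and none changed 2 fold at any site after quantile normalization. With 75th percentile scaling the median of this list ran from -0.34 at H4 to 0.88 at D, so its steadiness depended on the scaling. In liver RNA, fewer red cells in the tissue and less RNA per red cell cannot be told apart.

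**Figure D1:**
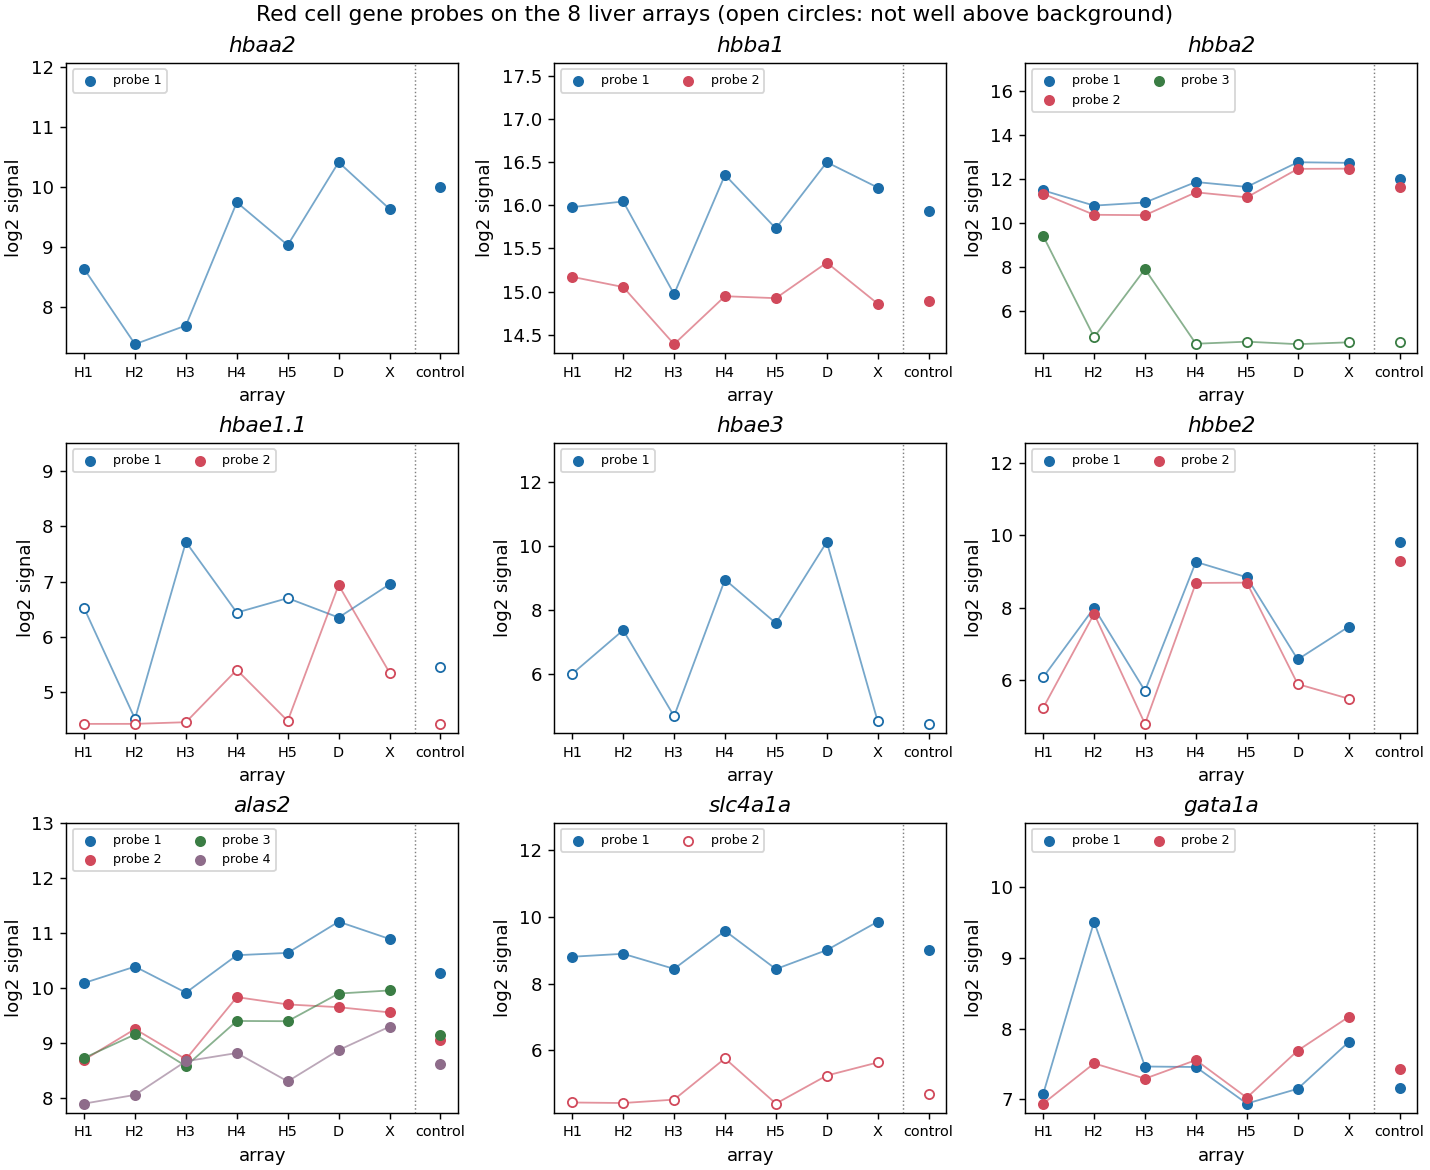
Log2 quantile normalized signal (vertical axis, a separate range for each gene) of every probe of the 9 genes with a probe, on the arrays of the 7 sites and the control (horizontal axis). Filled circles are well above background and open circles are not. The *hbaa2* probe is lowest at H2 and H3 (7.38 and 7.69), and the dim *hbae3* probe reaches 10.14 at D.

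The adult alpha globin *hbaa2* showed the widest change among the members measured on all arrays. Its single probe had log2 signals of 8.64 at H1, 7.38 at H2, 7.69 at H3, 9.74 at H4, 9.03 at H5, 10.41 at D and 9.63 at X, against 10.00 in the control. It was therefore lower than the control at 6 of 7 sites and above it at D alone. The level was 2.58-fold lower at H1, 6.18-fold lower at H2 and 4.98-fold lower at H3, whereas at H5 it was 1.96-fold lower and at D 1.33-fold higher. These are differences between single pools. The *hbaa2* signal at H2 lay close to the lowest signal that counts as above background on that array (7.29), so the fold there is uncertain. On the H3 array that lowest signal was 6.96. With normexp background correction the log2 differences were smaller, -1.08 at H1, -1.86 at H2 and -1.72 at H3. Set against the median of the other 7 arrays instead of the control, *hbaa2* was 0.71 higher at H4 and 0.60 higher at X on the log2 scale, so the lower values at these 2 sites depended on the control array. At H1 the value against those arrays was just under 2 fold (-0.998), and at D it was past 2 fold (1.38).

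The adult beta globin *hbba2* followed a similar course in its 2 bright probes. Probe 1 had log2 signals of 11.47 at H1, 10.78 at H2, 10.92 at H3, 11.85 at H4, 11.63 at H5, 12.75 at D and 12.72 at X, against 11.98 in the control. It was lowest at H2 and H3 and highest at D and X. Probe 2 gave 11.31 at H1, 10.36 at H2, 10.34 at H3, 11.38 at H4, 11.15 at H5, 12.45 at D and 12.45 at X, against 11.62 in the control. The mean of both probes fell by 1.23 at H2 and by 1.17 at H3 on the log2 scale, and was 0.80 higher at D and 0.79 higher at X. Differences at H1, H4 and H5 were smaller, from -0.41 to -0.18, and the one at H4 was 0.14 against the median of the other 7 arrays. On that reference *hbba2* was past 2 fold higher at D (1.13) and X (1.12). Its difference there was -1.05 at H2 and, just under 2 fold, -0.98 at H3. Over the 8 arrays the 2 probes correlated at r = 0.99, and the *hbba2* mean and *hbaa2* at r = 0.90 (Pearson, n = 8 arrays that share processing, given as a description).

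Probe 3 of *hbba2* went its own way. It was well above background only at H1 (9.40) and H3 (7.89) and dim elsewhere, at 4.80 for H2, 4.50 for H4, 4.59 for H5, 4.48 for D, 4.56 for X and 4.59 for the control. Against the lowest signal that counts as above background in the control, it was at least 6.69-fold higher at H1 and at least 2.35-fold higher at H3. At the same 2 sites the other *hbba2* probes were below the control. A probe bright on 2 arrays and dim on 6 was left out of the *hbba2* mean, and the reason for the disagreement was not tested.

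*hbba1*, the other adult beta globin, changed least among the adult globins. Its probe 1 had log2 signals of 15.98 at H1, 16.04 at H2, 14.97 at H3, 16.35 at H4, 15.73 at H5, 16.50 at D and 16.21 at X, against 15.93 in the control. Probe 2 ranged from 14.39 at H3 to 15.33 at D among the sites, with 14.89 in the control. Both probes were lowest at H3 and highest at D, with a log2 difference of the gene mean of -0.73 at H3 and 0.51 at D. With 75th percentile scaling, and likewise in the authors' deposited values, the value at D was 1.11, past 2 fold. Neither probe was below the control at H2, the site with the lowest *hbaa2* signal. The differences of *hbba1* at H4, H5 and X changed sign with the processing. *hbaa1*, the partner alpha globin, had no probe and is not described further. Adult globin genes of one type have closely related sequences, and how far each probe also binds its relatives was not tested.

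Among the 12 probes that were well above background on all arrays, counts of at least 2 fold changes were set beside the share of all 21705 probes passing the same filter. At H1, 1 of 12 was lower (*hbaa2*; 5.8% of all probes) and 0 were higher (5.3%). At H2, 3 of 12 were lower (*hbaa2* and both *hbba2* probes; 1.88%) and 1 was higher (a *gata1a* probe; 1.85%). At H3, 3 of 12 were lower (the same globin probes as at H2; 6.89%) and 0 higher (7.42%). Against the control, no member probe passed 2 fold in either direction at H4 (3.49% of all probes higher and 4.33% lower), H5 (2.51% and 2.37%), D (8.43% and 11.2%) or X (4.58% and 5.36%). The 3 lower probes at H2 and at H3 belong to only 2 genes, and 2 of them measure the same transcript. Over the 84 pairs of probe and site, 1 was higher and 7 were lower.

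**Figure D2:**
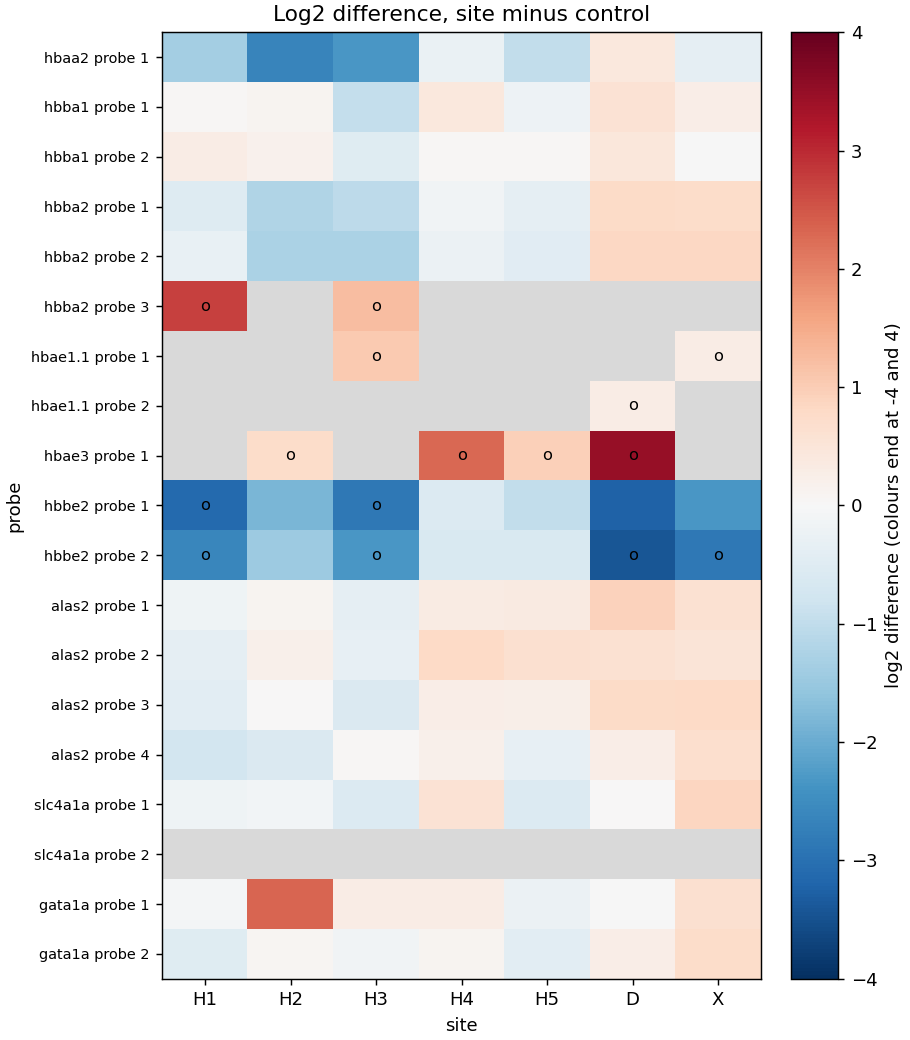
Log2 difference of each site from the control (columns) for the 19 member probes (rows), with red for higher and blue for lower at the site. A circle marks a bound where the probe was dim on 1 of the 2 arrays, and grey cells have no measurable difference. *hbaa2* and 2 *hbba2* probes are blue at H2 and H3, and both *hbbe2* probes are blue at every site.

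Embryonic globin signals were near background on part of the arrays, so that a difference can often be given only as a bound. *hbbe2*, an embryonic beta globin, had the highest signal in the control. Probe 1 had log2 signals of 6.08 at H1 (dim), 8.0 at H2, 5.70 at H3 (dim), 9.27 at H4, 8.84 at H5, 6.57 at D and 7.47 at X, against 9.82 in the control. It was at least 8.72-fold lower at H1, at least 7.25-fold lower at H3, 9.48-fold lower at D, 5.07-fold lower at X and 3.53-fold lower at H2, with smaller differences of 1.97-fold at H5 and 1.46-fold at H4. Probe 2 was dim at H1, H3, D and X and had log2 signals of 7.83 at H2, 8.68 at H4 and 8.69 at H5, against 9.30 in the control. Its bounds were at least 6.10-fold lower at H1, 5.07-fold at H3, 10.6-fold at D and 7.19-fold at X. Both probes were thus lower than the control at all 7 sites, and they correlated at r = 0.96 over the 8 arrays. All 7 differences rest on the 1 control array, where both probes were highest. Among the sites, both probes were highest at H4 and H5. Values against the median of the other 7 arrays are not given for *hbbe2*. How far its lower values depend on the control array was therefore not tested.

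The 2 embryonic alpha globins were dim in the control. The *hbae3* probe was well above background at H2 (7.38), H4 (8.96), H5 (7.59) and D (10.14), and dim at H1 (6.01), H3 (4.68), X (4.53) and in the control (4.44). It was at least 11.2-fold higher at D, at least 4.94-fold at H4, at least 1.92-fold at H5 and at least 1.65-fold at H2. The sites that carried *hbae3* signal lay on both slides. *hbae1.1*, a second embryonic alpha globin, was dim in the control on both probes. Its probe 1 was at least 2.09-fold higher at H3 and at least 1.23-fold higher at X, and its probe 2 at least 1.22-fold higher at D. D was the only site where both probes were above background, but its array had the lowest limit (5.65, against 6.45 to 7.29 on the others). Probe 1 was at 6.35 at D, below its dim signals at H1 (6.52), H4 (6.44) and H5 (6.70). The 2 probes therefore set D apart from the other sites only in part. Closely related copies of *hbae1.1* lie beside it, and how far its probes also bind them was not tested.

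When probes that were above background on either the site or the control array were counted, both *hbbe2* probes were also lower at H1 (3 of 15 member probes; 10.7% of all probes), H2 (5 of 15; 5.77%) and H3 (5 of 16; 12.7%). At D and X the 2 *hbbe2* probes were the only members lower (2 of 17 with 13.9% of all probes, and 2 of 15 with 10.2%). None of 15 was lower at H4 (7.88%) or H5 (6.17%). Higher counts on this filter were 1 of 15 at H1 (8.44%), 2 of 15 at H2 (3.51%), 2 of 16 at H3 (11.3%), 1 of 15 at H4 (9.36%), 1 of 15 at H5 (6.17%), 2 of 17 at D (15.5%) and 1 of 15 at X (8.91%). Apart from *hbaa2*, 2 *hbba2* probes and *gata1a*, the probes counted here entered through the array on which they were brighter and were set against a signal below background on part of the arrays, so nothing is read from these counts. By the bounds given above, *hbae3* was at least 2 fold higher only at H4 and D, and *hbae1.1* only at H3.

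In the zebrafish assembly GRCz12tu, used here for gene order only, the globin genes lie in 2 clusters. One holds 11 globin genes, among them *hbaa2*, *hbba2*, *hbba1*, *hbae1.1* and *hbae3*, and the other holds *hbae4*, *hbbe3*, *hbbe2* and *hbae5* with no other protein-coding gene between them. Neighbours of *hbbe2* did not share its values. *hbae4* was within 0.56 of the control at every site on the log2 scale, with 10.43 at H1, 10.88 at H2, 10.55 at H3, 11.07 at H4, 10.88 at H5, 11.41 at D and 11.30 at X, against 10.85 in the control. *hbbe3* differed by -0.96 at H4 to 0.28 at X. In the larger cluster the adult *hbba2* was higher at D and X, while *hbae3* had signal at D and none above background at X.

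The heme synthesis gene *alas2*, which encodes the first enzyme of the pathway in red cells, was measured by 4 probes. Probe 1 had log2 signals of 10.09 at H1, 10.38 at H2, 9.91 at H3, 10.59 at H4, 10.63 at H5, 11.20 at D and 10.89 at X, against 10.27 in the control. The mean of the 4 probes was 0.63 higher at D and 0.65 higher at X, and lower at H1 (-0.42) and H3 (-0.31), all under 2 fold. All 4 probes were higher than the control at D, at X and at H4. X, H4 and H3 had no control on their slide. With each slide centred on its own median, the *alas2* difference was 0.30 at X, 0.04 at H4 and -0.66 at H3. At H2 and H5 the sign differed between probes and between processing choices. The *alas2* mean correlated with *hbba2* at r = 0.79 and with *hbaa2* at r = 0.70 over the 8 arrays.

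*slc4a1a* encodes band 3, the anion exchanger of the red cell membrane. Its measured probe had log2 signals of 8.81 at H1, 8.90 at H2, 8.45 at H3, 9.59 at H4, 8.44 at H5, 9.01 at D and 9.86 at X, against 9.0 in the control. It was 1.82-fold higher at X and 1.51-fold higher at H4, and 1.47-fold lower at both H3 and H5. Its second probe was dim on all 8 arrays.

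*gata1a*, the transcription factor that drives red cell development, gave different answers from its 2 probes. Probe 1 had log2 signals of 7.08 at H1, 9.51 at H2, 7.46 at H3, 7.46 at H4, 6.94 at H5, 7.15 at D and 7.81 at X, against 7.17 in the control, which is 5.06-fold higher at H2. Probe 2 had 6.94 at H1, 7.51 at H2, 7.29 at H3, 7.55 at H4, 7.02 at H5, 7.69 at D and 8.16 at X, against 7.43 in the control. The high value at H2 was seen on probe 1 only, since probe 2 differed from the control by 0.08 there. The mean of both probes was 1.21 higher at H2, and 0.69 higher with normexp background correction, which is under 2 fold. At X both probes were higher, by 0.64 and 0.73. Over the 8 arrays the probes correlated at r = 0.32. Probe 2 at H2, and both probes at H3 and H5, lay close to the lowest signal that counts as above background. That signal was 7.29 at H2, 6.96 at H3 and 6.87 at H5, so these *gata1a* values are uncertain.

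Across the 6 member genes with a measured probe, the median log2 difference was -0.35 at H1, -0.08 at H2, -0.64 at H3, 0.22 at H4, -0.36 at H5, 0.46 at D and 0.67 at X. The median over all 8654 genes lay between -0.03 and 0.10. Of the 6 genes, 1 was at least 2 fold lower at H1 (6.1% of all genes), 2 at H2 (1.54%), 2 at H3 (6.93%) and 0 at H4 (3.17%), H5 (1.77%), D (9.74%) and X (5.5%). One gene, *gata1a*, was at least 2 fold higher at H2 (1.51%), and 0 were at H1 (4.88%), H3 (6.19%), H4 (3.3%), H5 (2.28%), D (6.67%) and X (3.06%). On the slide that held the control, the member medians were -0.35 at H1, -0.08 at H2 and 0.46 at D. The other 4 sites had no control on their slide. With each slide centred on its own median, the H4 median was 0.057 and the X median 0.43.

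Of other globins, 4 of 15 were measured on all arrays. *mb*, which encodes the muscle oxygen store myoglobin, was 1.83 higher at H5 on the log2 scale and lower at H4 (-1.01). At H5 the median of 5 measured heart and skeletal muscle genes was 3.65 higher than the control, against -1.55 to -0.10 at the other sites. Of these 5 genes, 3 were above the control at H5 and 2 were below it. The summed signal of the 5 genes was 71778 at H5 and 7852 in the control. The part of muscle RNA in the *mb* value was not tested. The cytoglobin gene *cygb1* passed 2 fold at no site.

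Heme synthesis genes did not move with the globins as a list. The median of the 12 measured genes lay between -0.18 at H4 and 0.26 at H1. *cpox*, which encodes a late enzyme of the pathway, was lower than the control at all 7 sites, with log2 differences of -1.29 at H1, -1.03 at D and -1.21 at X. *ppox*, the next enzyme, was 1.40 higher at D. The mitochondrial glycine carriers *slc25a38a* and *slc25a38b* were 1.38 higher at H3 and 1.44 higher at X, and *slc25a38a* was also 1.36 higher at D and lower at H4 (-1.03). *clpxa*, an unfoldase that activates the first enzyme of heme synthesis, was 1.06 higher at H1 and 1.32 higher at H3. *alas1*, the housekeeping form of that first enzyme, stayed within 0.68 of the control.

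Of 5 measured iron uptake genes, 1 was at least 2 fold higher at D (6.67% of all genes), and their median there was 0.98 higher. At D the transferrin receptor *tfr1a* was 1.02 higher, the mitochondrial iron importer *slc25a37* 0.99 higher and the iron transporter *slc11a2* 0.98 higher on the log2 scale, whereas *snx3*, a sorting protein that recycles the transferrin receptor, was lower (-0.56). At the other 6 sites the medians of this list lay between -0.33 and 0.18.

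Genes of heme breakdown changed one by one. Of the heme oxygenases, which open the heme ring, *hmox1b* and *hmox1a* were lower at H5, with log2 differences of -2.24 and -1.48. *hmox1a* was lower still at H2 (-1.62). A further heme oxygenase, *hmox2a*, differed by only -0.05 at H5 and passed 2 fold at no site. The biliverdin reductases went different ways, with *blvra* 1.46 higher at H1 and *blvrb* lower at D (-1.69) and H4 (-1.16). The median of the 7 measured genes was between -0.11 and 0.45.

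Of 27 genes for red cell membrane proteins and enzymes, 14 were measured. *cahz*, a red cell carbonic anhydrase of zebrafish, was 0.80 higher at D, 0.79 higher at X and 0.45 higher at H4, and lower at H1 (-0.64). These values lie close to those of *hbba2* at D and X, though none reached 2 fold. At H2 and H3, where *hbba2* fell most, *cahz* differed by only -0.42 and -0.06, and at H5 by -0.39. The water channel *aqp1a.1* was 0.74 higher at H4, 0.75 higher at D and 0.53 higher at X, and lower at H1 (-0.31), H2 (-0.16) and H3 (-0.18). Both genes were picked after their values were seen, and how far the list moved as one differed between sites. Of its 14 genes, 8 were above the control and 6 below at D, and 10 and 4 at X. These counts were 6 and 8 at H1 and at H4, and 7 and 7 at H5. At H2 and at H3, 3 were above and 11 below, with list medians of -0.14 and -0.13. Genes of the list past 2 fold were, by log2 difference, the carbonic anhydrase *ca2* (-1.64 at H1, -1.15 at H3 and -2.73 at D), *tspan33a* (2.04 at H3), *bpgm* (1.11 at H4), the membrane skeleton gene *epb41b* (-1.14 at D) and *blvrb*. The list medians lay between -0.16 at H1 and 0.28 at X.

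Among erythroid transcription factors and receptors, 8 of 19 genes were measured and 11 were dim, including the erythropoietin receptor *epor*. *klf1*, the red cell factor that switches on beta globin genes in mammals, was 0.61 higher at X and lower at the other 6 sites (-0.60 to -0.24). *tal1* was lower at H3 (-1.05) and *ldb1a* 1.16 higher at D. *klf3* was lower at all 7 sites and past 2 fold at H1 (-1.32), H3 (-1.41), D (-1.37) and X (-1.06). The list medians lay between -0.38 at H3 and 0.18 at X. In the hypoxia list *epoa*, the gene for the hormone erythropoietin, was dim. *egln3*, an oxygen-sensing hydroxylase, was 1.97 higher at H1 and 2.48 higher at H3, and the glycolytic gene *ldha* was lower at H3 (-2.50), D (-3.47) and X (-2.48). In the same list *hif1al* was lower at H4 (-1.03) and *ankrd37* at D (-1.01).

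List medians of other blood cells moved with the adult globins at part of the sites. The leukocyte list, with 15 of 25 genes measured, had medians of -0.77 at H1, -0.21 at H2, -1.36 at H3, 0.36 at H4, -0.44 at H5, 0.29 at D and -0.61 at X. How far the genes moved as one differed between sites. Those above and below the control were 3 and 12 at H1 and at H5, 4 and 11 at H2, and 2 and 13 at H3. They were 12 and 3 at H4, 8 and 7 at D, and 1 and 14 at X. At H1 3 of the 15 were at least 2 fold higher (4.88% of all genes) and 6 at least 2 fold lower (6.1%). At H3 0 were at least 2 fold higher (6.19%) and 9 at least 2 fold lower (6.93%). The summed signal of the list was 34871 to 100864 at the sites and 73108 in the control. This sum was below the control at H3 together with all measured adult globins, and at H1, H2 and H5 together with *hbaa2* and *hbba2*. It was also below the control at X, where *hbba2* was higher. At D it was above the control together with *hbba2*, and at H4 it was above the control while *hbba2* was slightly lower. The thrombocyte list had 3 of 8 genes measured, and its medians ran from -0.81 at H3 to 0.98 at D. At no site did the 3 genes share a sign. At D 2 were above the control and 1 below, and at H3 1 was above and 2 below. The summed signal of the 3 genes was 996 to 1925 at the sites, against 1439 in the control. The part of blood content in the globin values was not tested.

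**Figure D3:**
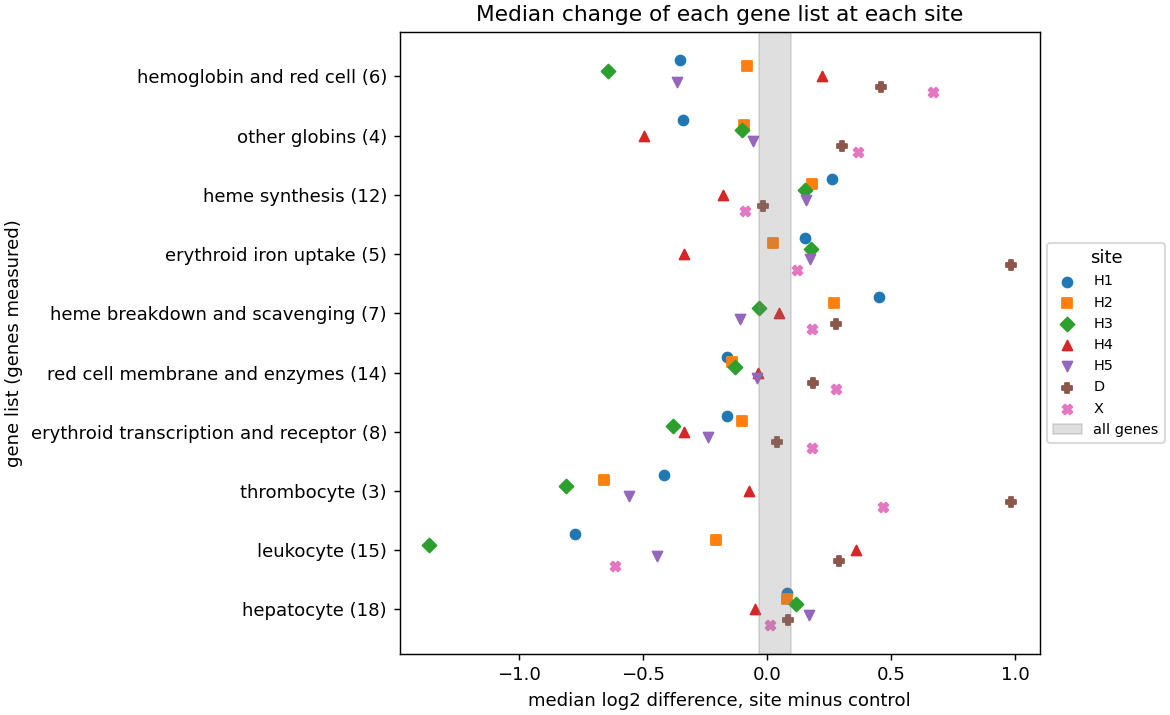
Median log2 difference of each site from the control (horizontal axis) for 10 gene lists (vertical axis, with the number of genes measured on all 8 arrays), 1 symbol per site. The grey band spans the medians of all genes, -0.03 to 0.10. The hemoglobin and red cell list runs from -0.64 at H3 to 0.67 at X, while the hepatocyte list stays between -0.05 and 0.17 (-0.34 to 0.88 with 75th percentile scaling).

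The *hbbe2* signal ran beside genes of the exocrine pancreas, whose tissue is spread along the gut and near the liver in zebrafish. Of 10 such genes 9 were measured, and all 9 were lower than the control at each of the 7 sites. These differences rest on the same 1 control array as those of *hbbe2*. Their median log2 difference was -2.14 at H1, -0.94 at H2, -3.64 at H3, -0.24 at H4, -0.79 at H5, -1.57 at D (-0.72 with 75th percentile scaling) and -2.60 at X, and their summed signal was 105334 to 737758 at the sites, against 887418 in the control. None of the 9 was at background, so pancreas transcripts were present on every array. The mean of the *hbbe2* probes correlated with the mean of the pancreas list at r = 0.96 (Spearman's rho = 0.93) over 8 arrays, as a description. This mean uses *hbbe2* signals not above background at H1 and H3 for both probes and at D and X for probe 2, so the order of the low arrays is uncertain. The adult globin mean gave r = 0.32 with the same list. For 4 measured intestine genes the correlation with *hbbe2* was 0.79. The part of pancreas RNA in the *hbbe2* value was not tested, and whether the *hbbe2* probes also bind another transcript was not tested.

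**Figure D4:**
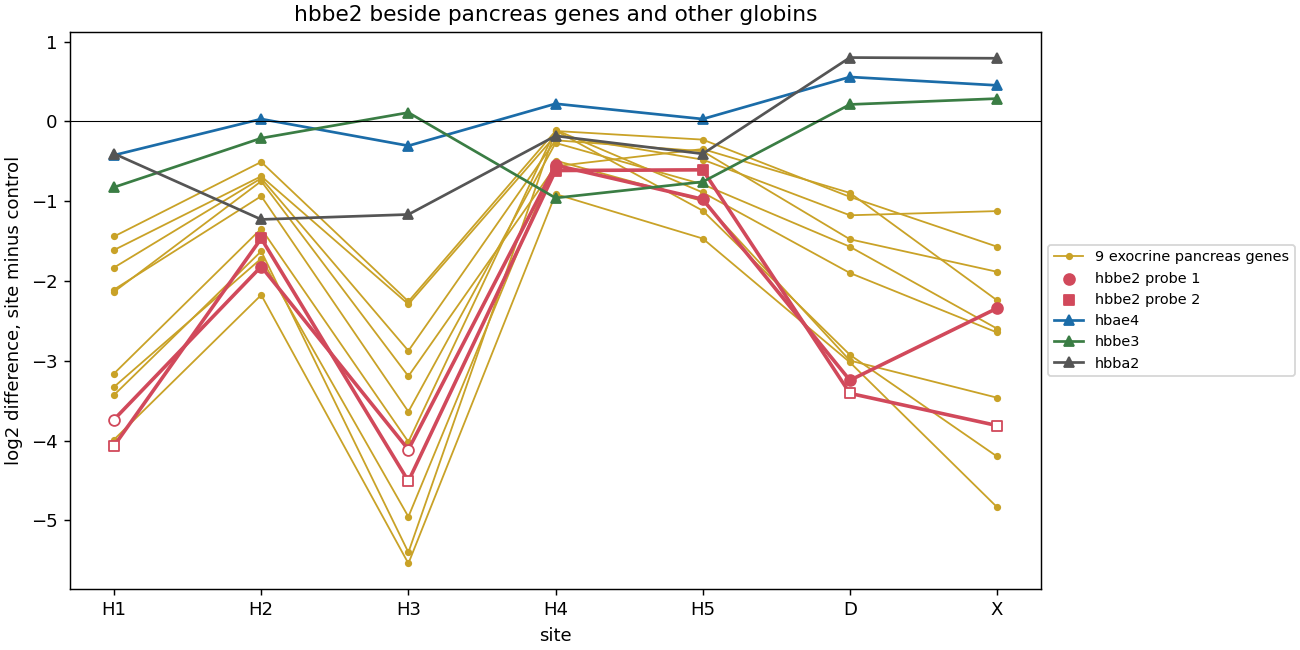
Log2 difference from the control (vertical axis) at the 7 sites (horizontal axis) for both *hbbe2* probes (red, open where dim at the site), 9 exocrine pancreas genes (yellow) and the globins *hbae4*, *hbbe3* and *hbba2*. The *hbbe2* probes and all pancreas genes are below 0 at every site, with the pancreas median at -3.64 for H3 and -0.24 for H4.

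The search took 8834 probes with a gene symbol that were well above background on all arrays and ranged over at least 2 fold. Outside the gene lists, those most like the mean of the 3 adult globin genes were *tbcc* (r = 0.94), *grna.1* (0.94), *klhl41b* (0.91), *gapdhs* (0.91) and *cbx5* (0.91). They were followed by *si:ch211-133n4.4* (0.90), *c1qtnf5* (0.88), *plbd2* (0.87), *rnf168* (0.87) and *si:dkey-83f18.5* (0.87). Members and genes of the lists were left out of this search, so it could not return a listed red cell gene. The coefficients are over 8 arrays that share processing and were the highest of many, and without the 2 arrays farthest from the globin median (H3 and H2) they were 0.80 to 0.99. The genes most like *hbbe2*, a search added after its values were seen and resting on the same dim signals, were *zgc:92590* (0.99), the protease gene *c6ast4* (0.99) and *zdhhc9* (0.99), and *c6ast3* also was among the first 10 (0.98). A search for *alas2* put *krt94* first (0.96), followed by *ttll12* (0.94), *rnd3b* (0.92) and the water channel *aqp1a.1* (0.92). The rest of the first 10 were *emp2*, *tmem205*, *lrrc15*, *ctsba*, *lfng* and *slc43a1b*. No globin and no other member gene was among these 10. The *hbbe2* and *alas2* searches left out only the gene itself, so their results cannot be set beside those of the adult globin search.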

How the data were processed

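Liver RNA was hybridised to one-colour Agilent zebrafish arrays, 1 array for each of 8 groups. The authors scanned them and deposited for each spot a background-subtracted fluorescence intensity and quality marks (Feature Extraction 11.5.1.1 in the file headers, 10.7 in the submitters' processing notes). The authors also deposited log2 values, which equal the log2 intensity of each array after subtraction of about the array's 75th percentile (r with the intensity of 0.99997 or more), while the study's methods name quantile normalization. The genome build behind the probe annotation was used for no coordinate.

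Here control spots were left out and repeated spots averaged. Processed signals were taken to log2 and then quantile normalized over 8 arrays (Python 3.11.15, numpy 2.4.6, pandas 2.3.3). Probes marked as outliers in at least 50% of their spots were left out. A gene's value is the mean over its probes well above background on all arrays. A change counts from 2 fold at every site. A probe dim on 1 of 2 arrays gets a bound against the lowest normalized signal well above background on the dim array, or its own signal if higher. The calculation was tested on simulated data. Symbols came from a RefSeq table, for 26094 of 27655 RefSeq probes.

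Named genes are all members with a probe and list genes past 2 fold at any site (up to 6 per list, widest range first). Also named are the 10 genes outside the lists most like the adult globin mean. Lists of other cell types are given by medians, sums and counts only. Other genes named (*hbae4*, *hbbe3*, *cygb1*, *alas1*, *slc25a37*, *slc11a2*, *snx3*, *hmox2a*, *cahz*, *aqp1a.1*, *klf1*, *epor*, *epoa*, and the genes most like *hbbe2* and *alas2*) were chosen after their values were seen. The members and lists were chosen with earlier results of these data known. Alternatives were 75th percentile scaling, the authors' log2 values, normexp background correction (limma 3.58.1, R 4.3.3, offset 50), centring by slide, a reference made of the other 7 arrays, other filters, other summaries over probes and 3 fold. Second arrays that the study describes were not analysed here.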

Additional observations from a re-analysis of the deposited data

Results flagged for a closer look

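In 2 genes, single sites moved past 2 fold in opposite directions from the same control, and the difference between the sites was not tested. The myoglobin gene *mb* was 1.83 higher at H5 and had a log2 difference of -1.01 at H4. The glycine carrier gene *slc25a38a* was 1.38 higher at H3 and had a log2 difference of -1.03 at H4. H3, H4 and H5 lay on the same slide.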

How the results depend on the processing

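No paired analysis was possible because each group had 1 array. Member probes past 2 fold were 8 of 84 pairs of probe and site. They were 27 of 108 with probes above background on either array, 31 of 133 with no filter on dim probes, 3 at 3 fold and 7 to 12 otherwise. The either-array filter also raised the share of all probes, to 3.51% to 15.5% per site and direction from 1.85% to 11.2%. For the other settings no such share is given, so nothing is read from these counts about the members. Against the median of the other 7 arrays, 6 member pairs were higher and 6 lower, with 3 probes past 2 fold at D and 2 at X. With 75th percentile scaling 2 were higher and 8 lower, against 1 and 7. That scaling moved the median of all probes to -0.16 at H4 (-0.04 with quantile normalization) and 0.22 at D (0.09). The member median moved beyond the repeated-spot error at H1 with normexp (-0.20), at H2 against the median of the other arrays (-0.22), at H3 with no filter (-0.31), at H4 with 75th percentile scaling (-0.0037), the authors' values (-0.0029) or slide centring (0.057), and at X with normexp (0.44), slide centring (0.43) or no filter (0.52). These shifts were set against the smaller repeated-spot error, from the median spread, and not against the larger pooled error. The H2 median was 0.01 with normexp. Signs of *hbba1* at H4, H5 and X, *alas2* at H2 and H5, *slc4a1a* at H2 and *gata1a* at H3 and D were not kept over the settings with the control as reference, nor, against the median of the other arrays, those of *hbaa2* at H4 (0.71) and X (0.60) and *hbba2* at H4 (0.14). Bounds recomputed after 75th percentile scaling, a setting added after the data were seen, left *hbbe2* probe 2 at D at least 6.54-fold lower, in place of 10.6-fold. Its probe 1 at D had a log2 difference of -2.73 in place of -3.24. The bound of *hbae1.1* probe 1 at H3 was 1.92-fold in place of 2.09-fold. The 1 array per group and the dim embryonic globin probes limit the precision.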
